A study of Mus musculus with 2 samples.

Results

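The genes described here form the antioxidant and NRF2 target set of mouse liver. They are 43 symbols chosen by name for their place in the NRF2 pathway or in glutathione, thioredoxin, peroxiredoxin and superoxide dismutase chemistry. The choice was made with earlier results of these data known. Of the 43 symbols, 40 had at least 1 probe set that the platform annotation pairs with exactly 1 gene symbol, out of 22180 genes so measured in all. Prdx1, Prdx5 and Prdx6 had none and carry no gene value. The study compared liver of male Iah1-WT mice with liver of male Iah1-KO mice, which lack Iah1 in the whole body. The Iah1 product resembles a yeast enzyme that cleaves isoamyl acetate. Both genotypes ate standard chow up to 6 weeks of age and high-fat pellets for the 12 weeks after it, lived 1 to a cage, and had food removed 4 hours before tissue was taken, so no group on chow enters the comparison. RNA of 3 mice was pooled for each genotype and hybridised to 1 Affymetrix array. The strain is not named in the labels used here.

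NRF2, the product of Nfe2l2, is a transcription factor that KEAP1 holds in the cytoplasm and hands to a CUL3 ubiquitin ligase for destruction. Electrophiles and peroxides modify cysteines of KEAP1, NRF2 then escapes and enters the nucleus, and with a small MAF partner it binds antioxidant response elements in front of genes for glutathione synthesis, quinone reduction and thiol repair. Because this control acts on the protein, the Nfe2l2 transcript is not a direct readout of NRF2 activity. Liver carries large amounts of these enzymes, since fatty acid oxidation, drug metabolism and haem turnover all produce oxidants.

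Values are log2 RMA signals, and a gene's value is the mean of its probe sets. With 1 array per genotype there is no replicate error and no test was possible, so "higher" and "lower" describe these 2 pools only. Genes were compared where the brighter array reached 4.68, the median over all genes of the brighter array's value, and 11090 genes did. Probe sets of 1 gene disagreed by a standard deviation of 0.27 in their KO minus WT difference (604 genes). That figure covers probe choice and not mice or hybridisation. Over 41345 probe sets the WT array had a median of 4.08 and the KO array of 4.10. Iah1 itself was at 8.59 in WT and 3.90 in KO, at least 15.1-fold lower against the filter. All 10 hepatocyte markers passed the filter, with Alb, which encodes albumin, at 13.30 in WT and 13.28 in KO.

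The antioxidant and NRF2 target genes had a median absolute log2 difference of 0.14 between the 2 arrays, and all compared genes also had 0.14. These values are not matched for signal, since the members were brighter, with a median WT value of 8.03 against 6.47. Cut into 4 bins by mean signal, all genes had a median absolute difference of 0.22 in the dimmest bin and 0.08 in the brightest. Of the 40 measured, 37 passed the filter, and none of these was higher or lower by 1.5-fold, where 1.47% of all compared genes were higher and 2.45% lower by that much, so a count of 0 in 37 is near the background. The differences ran from -0.34 for Sod3 to 0.28 for Nqo1, with a median of 0.03, against a median of -0.02 over all compared genes. At 1.2-fold (0.26 on the log2 scale) 1 gene was higher, Nqo1, and 3 were lower, Sod3, Gpx3 and Prdx4, where 9.3% of all compared genes were higher and 14.4% lower. Above 0 lay 23 of the 37, or 62.2%, and 44.3% of all compared genes did. The differences of 33 of the 37 were smaller than the disagreement between probe sets of 1 gene. At the nearly equal cut of 1.2-fold, 33 of the 37 and 8464 of all 11090 compared genes differed by less.

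**Figure D1:**
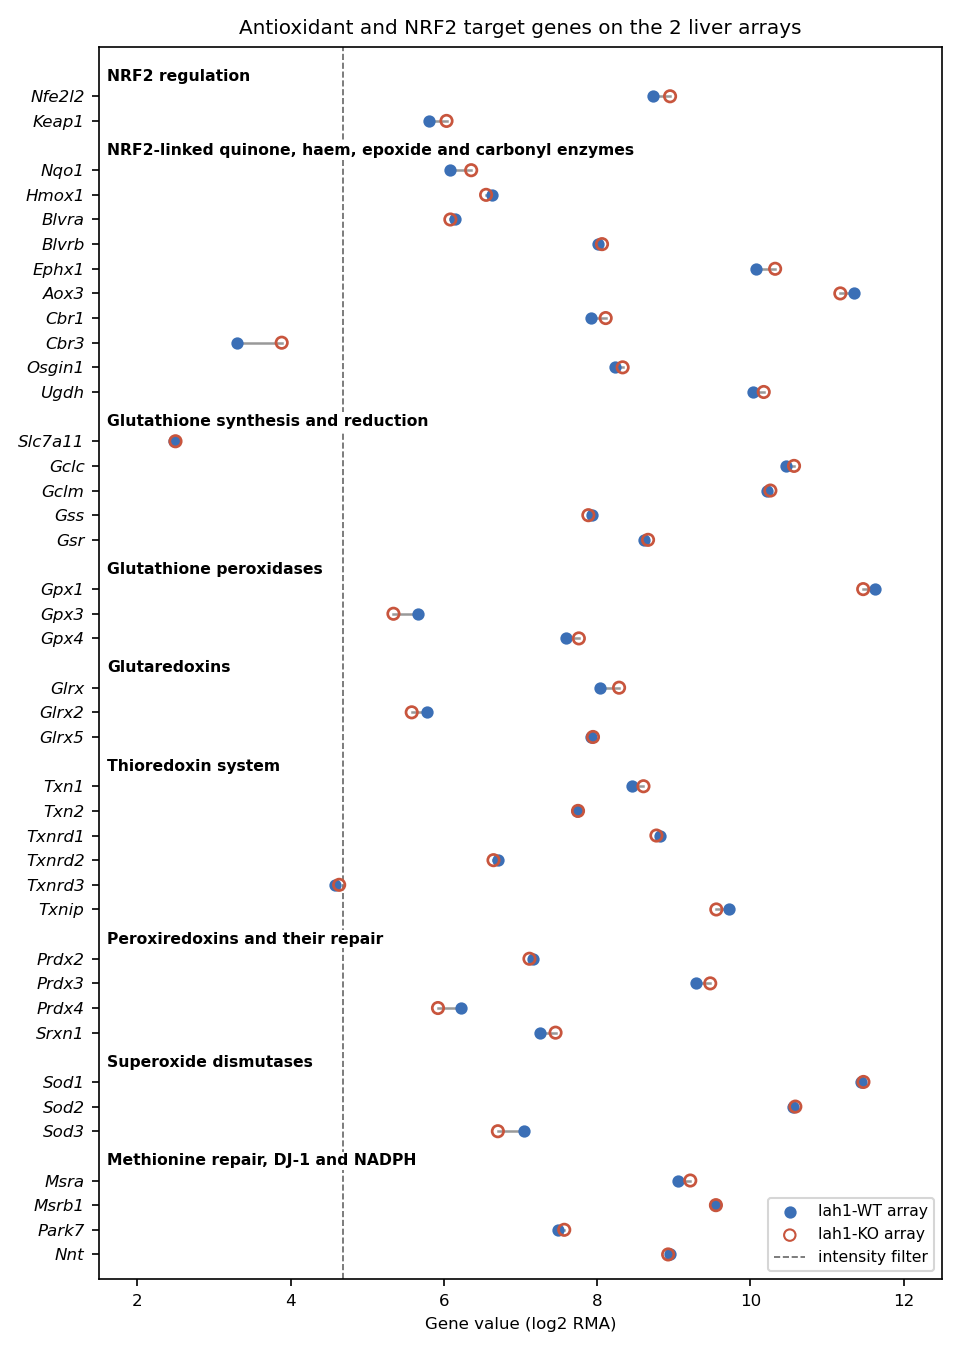
Each line is 1 gene, with its log2 RMA value on the Iah1-WT array (filled) and the Iah1-KO array (open), grouped by role; the dashed line is the intensity filter at 4.68. For most genes the circles nearly coincide, and Cbr3, Slc7a11 and Txnrd3 lie below the filter on both arrays.

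Matches to the core of the antioxidant response element near the starts of these genes are shown here because NRF2 binds this element. Part of the set was chosen for its chemistry and not as NRF2 targets. The core, TGACNNNGC, was searched on both strands (reverse complement GCNNNGTCA, overlapping matches allowed) in the RefSeq promoter windows of GRCm38.p6, which run from 250 bases before to 50 bases after a gene's start. Of 36 listed genes with a window, 8 held a match, or 22.2%, and 14.0% of all 27025 genes with a window did. Prdx1, one of the 8, had no gene value. The stretches around the 8 matches of the other 7 genes read as follows, 5′ to 3′ on the gene's own strand with the match in capitals.
Nfe2l2 (chr2:75704879-75704913, minus strand): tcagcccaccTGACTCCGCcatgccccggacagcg
Srxn1 (chr2:152105542-152105570, plus strand, after the gene's start): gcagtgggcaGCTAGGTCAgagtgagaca
Ugdh, farther match (chr5:65435950-65435990, minus strand): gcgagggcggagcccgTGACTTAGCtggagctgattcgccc
Ugdh, nearer match (chr5:65435912-65435952, minus strand): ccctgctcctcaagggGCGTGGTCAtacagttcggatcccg
Gclm (chr3:122245407-122245447, plus strand): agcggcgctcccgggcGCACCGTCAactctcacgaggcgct
Sod1 (chr16:90220690-90220730, plus strand): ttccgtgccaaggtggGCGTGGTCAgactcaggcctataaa
Txnrd1 (chr10:82859098-82859138, plus strand, 1 of its 3 windows): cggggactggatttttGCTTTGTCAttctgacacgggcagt
Blvra (chr2:127070592-127070632, plus strand): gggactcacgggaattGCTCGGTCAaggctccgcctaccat
A match is a run of letters and not a shown binding site, and elements farther from the start are outside these windows. The 7 genes differed by between -0.06 for Blvra and 0.22 for Nfe2l2, with 5 of 7 above 0. The 24 compared genes whose windows hold no match differed by between -0.32 and 0.28, with 15 of 24 above 0, so the ranges overlap. Of all compared genes 44.3% lay above 0. The compared genes Gclc, Gsr, Hmox1, Sod3, Nnt and Msra had no window, were not searched and are in neither group.

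The regulators were both higher in the KO array by their gene values. Nfe2l2 was at 8.73 in WT and 8.95 in KO, differing by 0.22 or 1.16-fold. With the compared genes ordered by mean signal and cut into 4 bins of equal size, 11.6% of the 2773 genes in the brightest bin differed by at least as much. Keap1 was at 5.81 in WT and 6.03 in KO, but its probe sets disagreed. The brighter one gave 7.06 in WT and 7.02 in KO, differing by -0.04, and the dimmer one 4.56 and 5.04, differing by 0.49. The direction for Keap1 therefore turned to lower when the brighter probe set alone was used.

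Of 9 compared enzymes of quinone, epoxide, carbonyl and haem metabolism, 6 lay above 0 with a median of 0.11, where 44.3% of all compared genes lay above 0, and 1 passed 1.2-fold. Nqo1, the quinone reductase that is a standard reporter of NRF2 activity, was at 6.08 in WT and 6.36 in KO, differing by 0.28 or 1.21-fold. In its signal bin 26.3% of genes differed by at least as much. Ephx1, microsomal epoxide hydrolase, was at 10.07 in WT and 10.32 in KO, 1.19-fold higher, a size that 8.80% of genes in the brightest bin reached. Cbr1, a carbonyl reductase, was at 7.92 in WT and 8.11 in KO, and its probe sets gave 0.11 and 0.28, on the same side of 0. Its neighbour and paralogue Cbr3 had the largest difference of the 40 measured genes, 0.58, from 3.30 in WT to 3.88 in KO, but both values lay below the filter and it was not counted. Ugdh, which makes the UDP-glucuronate used in conjugation, differed by 0.14, and Osgin1, a growth inhibitor induced by oxidative stress, by 0.11. Aox3, an aldehyde oxidase of mouse liver, went the other way, at 11.36 in WT and 11.17 in KO, differing by -0.18, a size that 16.8% of the brightest bin reached.

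The haem breakdown genes of that group showed small differences of mixed sign. Hmox1, the inducible haem oxygenase, was at 6.63 in WT and 6.55 in KO, differing by -0.08. Blvra and Blvrb, the biliverdin reductases that act after it, differed by -0.06 and 0.06. Macrophages of the liver express Hmox1 while they clear red cells. On these arrays 14 of 15 macrophage and Kupffer cell markers passed the filter, and all 14 lay below 0 with a median of -0.47. Of all compared genes 44.3% lay above 0. One of the 14, Cd14, passed through its WT value only, with 4.98 in WT and 4.39 in KO, at least 1.23-fold lower against the filter. The sum of the linear signals of the 14 was 2703 in WT and 1919 in KO. Spic, the marker that did not pass, was at 4.06 in WT and 4.04 in KO. In pooled tissue RNA fewer cells of a type and less RNA per cell cannot be told apart, and their part in the Hmox1 value was not tested.

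**Figure D2:**
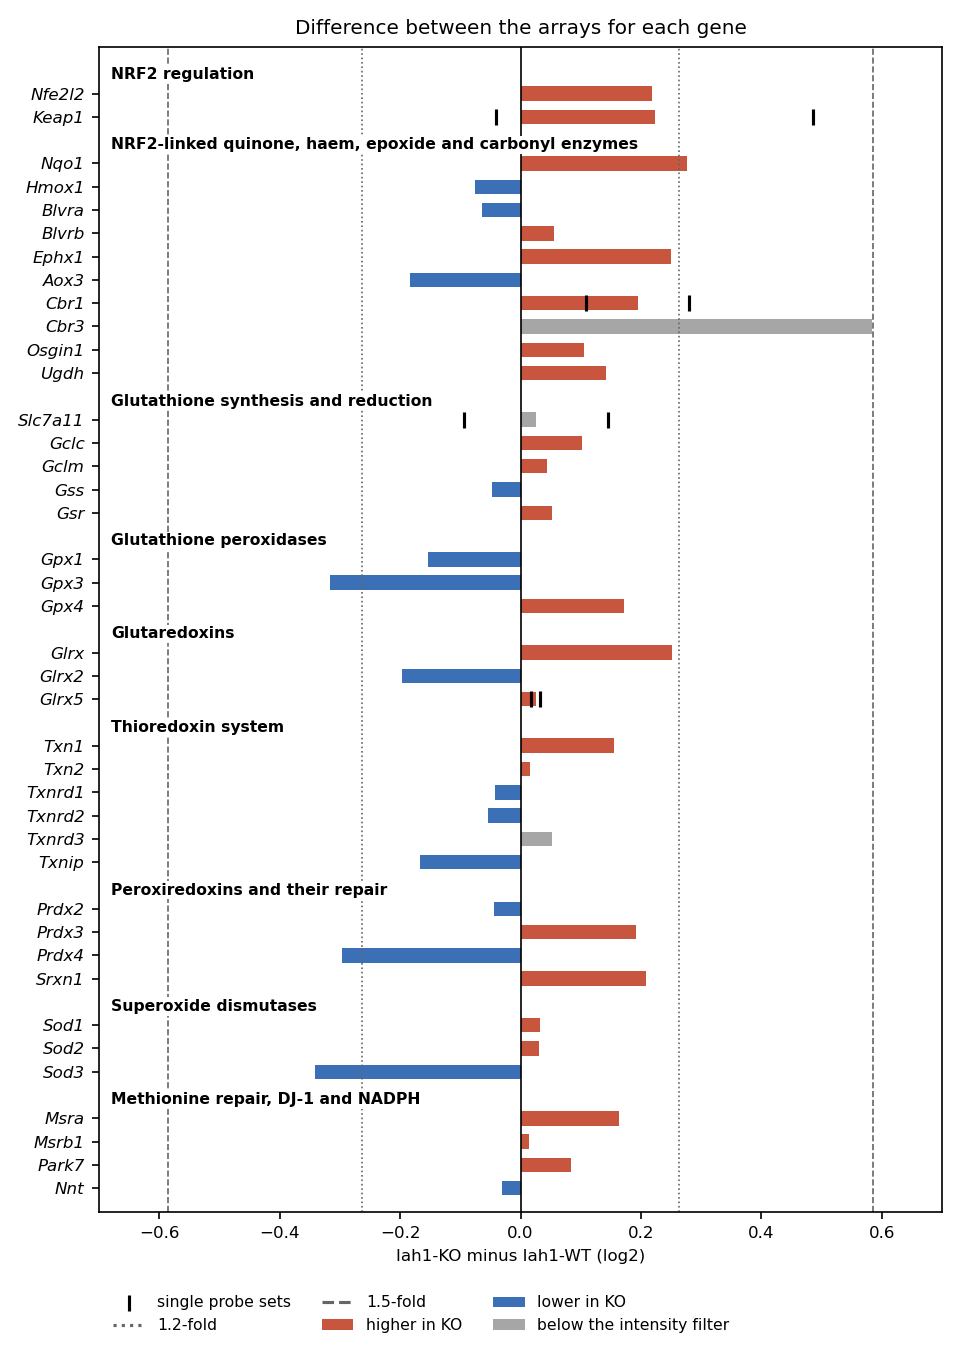
Bars give Iah1-KO minus Iah1-WT on the log2 scale for each measured gene, with short black ticks for single probe sets of genes that have several and grey bars for genes below the intensity filter. No coloured bar reaches the dashed 1.5-fold lines, and Nqo1, Gpx3, Prdx4 and Sod3 pass the dotted 1.2-fold lines.

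Glutathione synthesis genes were close to equal on the arrays. Gclc, the catalytic subunit of the rate-limiting glutamate-cysteine ligase, was at 10.47 in WT and 10.57 in KO, differing by 0.10. Gclm, its modifier subunit, was at 10.22 and 10.26, differing by 0.04. Gss, which completes the tripeptide, differed by -0.05, and Gsr, which returns oxidised glutathione to its reduced form, by 0.05. These 4 genes spanned -0.05 to 0.10. Slc7a11, the cystine importer that feeds this pathway and an NRF2 target, was below the filter on both arrays, with 2.47 in WT and 2.50 in KO.

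The glutathione peroxidases did not move one way. Gpx1, the cytosolic enzyme of hepatocytes, was at 11.62 in WT and 11.47 in KO, differing by -0.15. Gpx4, which reduces lipid hydroperoxides within membranes and guards against ferroptosis, was at 7.59 in WT and 7.76 in KO, differing by 0.17. Gpx3, the secreted peroxidase of plasma, was at 5.66 in WT and 5.34 in KO, 1.25-fold lower. In its signal bin 20.5% of genes differed by at least as much as Gpx3. Among glutaredoxins, which reduce glutathionylated proteins, cytosolic Glrx was at 8.03 in WT and 8.29 in KO, differing by 0.25, a size that 8.51% of the brightest bin reached. Mitochondrial Glrx2 was at 5.78 in WT and 5.58 in KO, differing by -0.20. Glrx5, which serves iron-sulfur cluster assembly, differed by 0.03, and its probe sets gave 0.02 and 0.03.

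In the thioredoxin system the cytosolic carrier Txn1 was at 8.45 in WT and 8.60 in KO, differing by 0.15. Txnip, whose protein binds thioredoxin and limits its reducing activity and whose transcription follows glucose, was at 9.72 in WT and 9.55 in KO, differing by -0.17. The carrier was thus higher and its inhibitor lower, each by less than 1.2-fold and less than the probe set disagreement. The reductases that recharge thioredoxin were nearly equal, with Txnrd1, the cytosolic form and an NRF2 target, at -0.04 and Txnrd2, the mitochondrial form, at -0.05. Txnrd3 was below the filter, with 4.58 in WT and 4.63 in KO. The mitochondrial carrier Txn2 differed by 0.02.

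Peroxiredoxins use thioredoxin to reduce peroxides. Prdx3, the mitochondrial form, was at 9.28 in WT and 9.48 in KO, differing by 0.19. Prdx2, a cytosolic form abundant in red cells, differed by -0.04. Prdx4, which works in the endoplasmic reticulum and is also secreted, was at 6.22 in WT and 5.92 in KO, 1.23-fold lower. In its signal bin 23.6% of genes differed by at least as much as Prdx4. Srxn1, sulfiredoxin, the NRF2 target that restores overoxidised peroxiredoxins, was at 7.25 in WT and 7.46 in KO, differing by 0.21. For Prdx1 the annotation offers only probe sets shared with other symbols, and the brightest of these, shared with a predicted gene, gave 11.14 on the WT array and 11.25 on the KO array. The other 2 gave differences of -0.16 and 0.39 at signals of 5.70 and 3.40 in WT, so no value was assigned.

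Superoxide dismutases convert superoxide to hydrogen peroxide. Sod1, the cytosolic copper-zinc enzyme, was at 11.44 in WT and 11.47 in KO, and Sod2, the manganese enzyme of mitochondria, was at 10.55 and 10.59. Both differed by 0.03, a size that 77.2% and 78.0% of genes in the brightest bin reached. Sod3, the extracellular enzyme that binds heparan sulfate on vessel walls and matrix, was at 7.04 in WT and 6.70 in KO, 1.27-fold lower. In its signal bin 8.66% of genes differed by at least as much. Sod3 was the lowest of the 37 genes.

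The genes with the lowest differences, Sod3, Gpx3 and Prdx4, encode the enzymes of the set that work outside the cell or inside the endoplasmic reticulum lumen, a grouping made after the values were seen. They lay between -0.34 and -0.30. All 13 sinusoidal endothelial markers also lay below 0, between -0.83 and -0.30 with a median of -0.45, and their summed linear signal was 4047 in WT and 2890 in KO. Of 10 stellate cell markers, all above the filter, 7 lay below 0, the median was -0.18, and their summed signal was 2053 in WT and 1838 in KO. The part of these cells in the values of Sod3, Gpx3 and Prdx4 was not tested. Hepatocyte markers had a median of -0.02 with 4 of 10 above 0, and a summed signal of 46554 in WT and 46252 in KO.

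The members that act mainly in mitochondria, grouped by the known location of their proteins, were centred near 0. Sod2, Prdx3, Txn2, Txnrd2, Glrx2, Glrx5 and Nnt had a median of 0.02 and spanned -0.20 to 0.19. Nnt, the transhydrogenase that makes mitochondrial NADPH and of which C57BL/6J mice lack a part, read 8.96 on the WT array and 8.93 on the KO array. Methionine sulfoxide reductases repair oxidised methionine in proteins. Msra was at 9.05 in WT and 9.21 in KO, differing by 0.16, and the selenoprotein gene Msrb1 differed by 0.01. Park7, which encodes the oxidation sensor DJ-1, differed by 0.08.

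Most of the set was bright. The brightest bin of compared genes held 25 of the 37, and 19 of these 25 lay above 0, where 44.8% of all genes in that bin did. None of the 25 passed 1.2-fold, where 2.24% of the bin's genes were higher and 5.08% lower. In the next bin down 2 of 6 lay above 0, beside 41.5% of all its genes, in the one below it also 2 of 6, beside 42.6%, and the dimmest bin held none. The 4 genes past 1.2-fold all came from these dimmer bins, where the standard deviation of all genes' differences was 0.20 and 0.28, against 0.16 in the brightest.

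**Figure D3:**
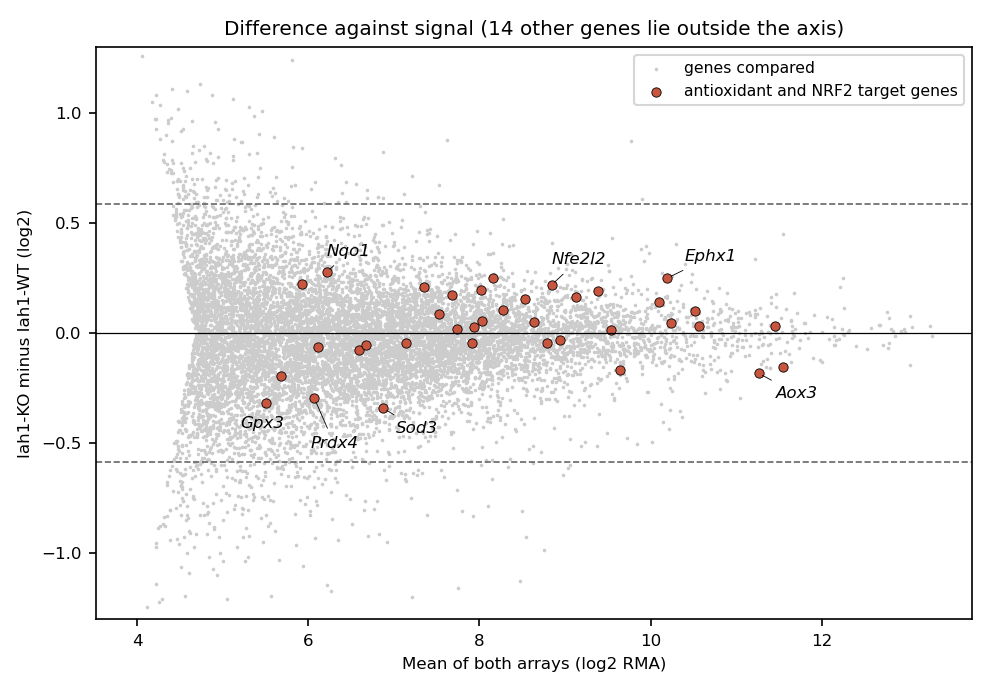
Each point is a gene above the intensity filter, placed by its mean log2 RMA value (horizontal) and its Iah1-KO minus Iah1-WT difference (vertical), with the 37 antioxidant and NRF2 target genes in red and dashed lines at 1.5-fold; 14 other genes lie outside the vertical axis. The red points stay between -0.34 and 0.28, inside the cloud of all genes, and the lowest of them are not among the bright ones.

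Genes around the set were read from lists that hold none of its members. The counts in these lists, and in the marker lists below, stand beside 44.3% of all compared genes above 0. By 1.5-fold, 1.47% of all compared genes were higher and 2.45% lower. Of 12 compared regulators of NRF2, 10 lay below 0 with a median of -0.10. Cul3, the scaffold of the ligase that degrades NRF2, was at 9.18 in WT and 8.99 in KO, Gsk3b, a kinase that marks NRF2 for another ligase, differed by -0.13, and Dpp3, which competes for KEAP1, by -0.12. Nfe2l3, an NRF2 relative, was the member past 1.5-fold by RMA values (-0.80), but its KO value lay below the filter and it was at least 1.13-fold lower against it. The small MAF partners Mafg, Maff and Mafk differed by -0.03, -0.11 and -0.06, and Bach1, a repressor at the same elements, by 0.00 (0.0002). These last 4 were chosen for their role after the values were seen.

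NRF2-linked conjugation, transport and iron genes had a median of 0.09, with 13 of 21 above 0 and none past 1.5-fold. By RMA values 3 were higher and 3 lower at 1.2-fold, near the 9.3% and 14.4% of all compared genes, and 1 of the 3 lower, Abcc4, does not reach 1.2-fold against the filter. Gstm3, a glutathione transferase, came closest to 1.5-fold, with 7.02 in WT and 7.60 in KO, 1.49-fold higher, while its paralogue Gstm4 was 1.29-fold lower. Close copies among the transferases can share probe signal, so single members are uncertain. Cyp2a5, a P450 that responds to NRF2, was at 4.88 in WT and 5.35 in KO, differing by 0.47. It fell in the dimmest signal bin, where 19.8% of all genes were higher by 1.2-fold. The efflux pump gene Abcc4 lay under the filter in KO and was lower by at least 1.14-fold.

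NADPH supply genes had a median of 0.05, with 7 of 12 above 0. Me1, malic enzyme, was at 10.09 in WT and 10.50 in KO, 1.33-fold higher, and H6pd, the hexose-6-phosphate dehydrogenase of the endoplasmic reticulum, differed by -0.30. The pentose phosphate genes Pgls and Taldo1 differed by 0.22 and 0.19. Glutathione supply and breakdown genes had a median of 0.04, with 12 of 19 above 0. In that list Chac1, which degrades glutathione, differed by -0.44 and Slc1a4, a neutral amino acid carrier, by 0.26. Ahcy, which yields homocysteine, differed by 0.25 and Ggct by -0.23.

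Other peroxide, thiol and radical defence genes had a median of -0.03, with 10 of 25 above 0, none higher and 2 lower by 1.5-fold. Those 2 were the metallothionein genes Mt2, at 9.47 in WT and 7.89 in KO, and Mt1, at 9.04 and 7.92, whose proteins bind zinc and copper and scavenge radicals. Next came Aifm2, a ubiquinone reductase that acts against ferroptosis, at 0.22, and Msrb3, a methionine sulfoxide reductase, at -0.21. Selenoprotein genes and the factors that make them had a median of 0.05 with 8 of 13 above 0, led by Selenos at 0.32, Selenok at 0.18, Dio1 at 0.15 and Scly at 0.12.

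Genes that generate oxidants had a median of -0.07, with 2 of 11 above 0. Cybb, the catalytic subunit of the phagocyte NADPH oxidase, was at 7.55 in WT and 7.03 in KO, 1.43-fold lower, and its organiser Ncf1 was 1.37-fold lower. Cyba, the partner subunit of Cybb, went the other way, at 5.95 in WT and 6.44 in KO, 1.40-fold higher. Nox4, an oxidase also expressed in hepatocytes, differed by -0.27. Phagocytes express Cybb and Ncf1, and the macrophage markers given above were lower in the same array. Their part in these values was not tested.

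**Figure D4:**
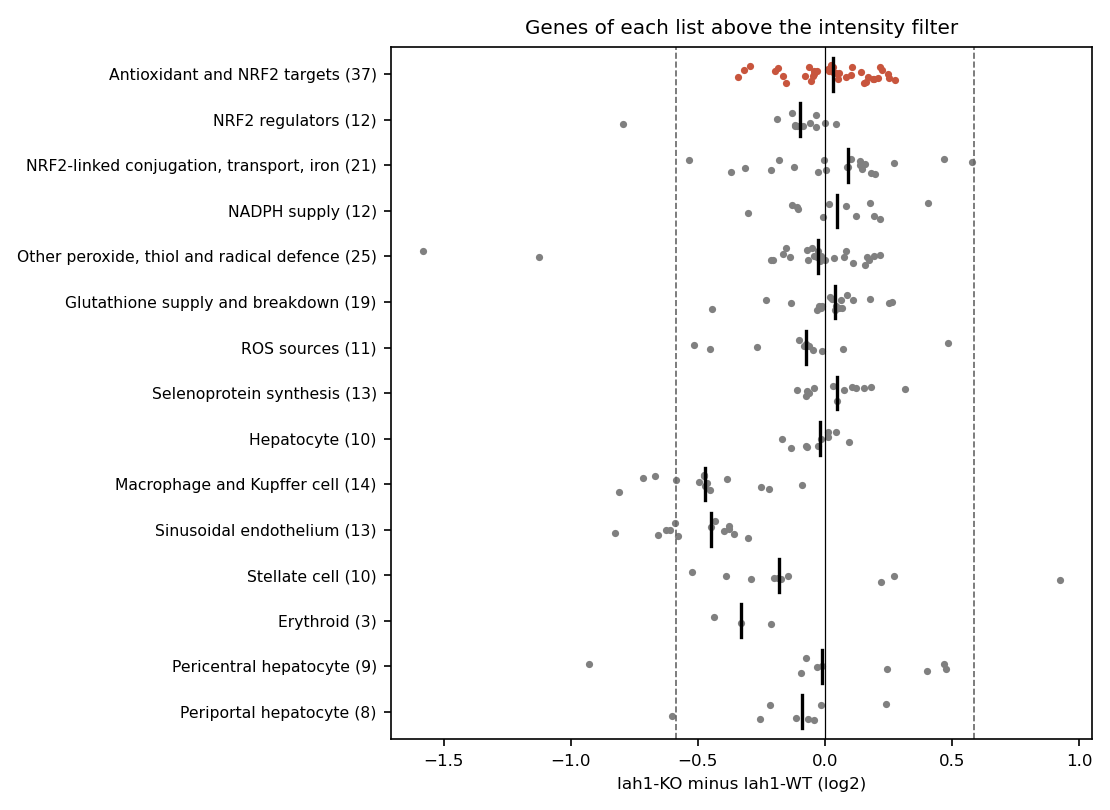
Points are Iah1-KO minus Iah1-WT differences (log2) of genes above the intensity filter in each list, black bars are list medians, dashed lines mark 1.5-fold, and the number of genes is in brackets. The 37 antioxidant and NRF2 target genes centre at 0.03, while macrophage and endothelial markers centre at -0.47 and -0.45.

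Of the remaining markers, 0 of 9 measured T and NK cell genes and 0 of 5 B cell genes passed the filter. One neutrophil marker of 10 did, Csf3r at 0.16, and one cholangiocyte marker of 5, Sox9 at -0.17. Erythroid markers matter for Prdx2 and Blvrb, which red cells carry. Of 4 measured, 3 passed the filter and lay below 0, Car1 at -0.21, Slc4a1 at -0.44 and Klf1 at -0.33, the last pair below the filter in KO, and their summed signal was 90.3 in WT and 72.3 in KO. Epb42 was below the filter on both arrays. Their part in the Prdx2 and Blvrb values was not tested. Pericentral hepatocyte genes had a median of -0.01 with 4 of 9 above 0, and they ranged from -0.93 for Cyp7a1 to 0.48 for Axin2. Of 8 periportal hepatocyte genes 7 lay below 0, their median was -0.09, and they ranged from -0.60 for Ass1 to 0.24 for Cyp2f2.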

How the data were processed

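Each genotype was hybridised to 1 Affymetrix array with pooled RNA of 3 mice and 100 ng of RNA in the labelling, per the labels. The deposited values are log2 signals, for which the submitters' processing notes list RMA and, without its role, Affymetrix Expression Console 1.3.0. RMA equalises the arrays' distributions and compresses differences of dim probe sets. No source used here names the genome build of the array annotation, and detection calls were not used. The array number limits precision.

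Of 41345 probe sets, the platform annotation gives 23521 exactly 1 symbol, 1814 several and 16010 none. All 40 measured members matched the RefSeq table by gene identifier. Gene values, KO minus WT differences and counts at 1.5-fold and 1.2-fold were computed in Python 3.11.15 with pandas 2.3.3, and the loess alternative with statsmodels 0.14.6. The calling and normalization steps were tested on simulated data. The members and lists were chosen with earlier results of these data known. All members were reported. From each other list up to 4 genes with the largest absolute difference were eligible for naming, and names outside this are marked in the text or are cell markers given for their level. Alternatives were 1.2-fold and 2-fold thresholds, no filter, a filter at the 75th percentile, loess with span 0.4, a further quantile normalization, the brightest probe set, subtraction of the median difference, and the mean in place of the median.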

Additional observations from a re-analysis of the deposited data

How the results depend on the processing

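At the 1.5-fold threshold, 0 antioxidant and NRF2 target genes were higher and 0 lower, and these counts stayed at 0 without the filter, with the 75th percentile filter, after loess, quantile normalization, median subtraction and with the brightest probe set, and at 2-fold. At 1.2-fold they became 1 higher and 3 lower, which follows from the smaller threshold. Without the filter Cbr3 is included, and its difference of 0.58455 fell just short of the 1.5-fold cut of 0.584963. The median stayed between 0.03 and 0.06 under these alternatives, and the mean was 0.03. The number above 0 was 23 of 37, and became 25 of 37 after quantile normalization again, when 49.4% of all compared genes lay above 0, and 22 of 37 with the brightest probe set. Prdx2 turned to 0.00 (0.0035) and Nnt to 0.01 under quantile normalization, and Keap1 to -0.04 with the brightest probe set. No other member above the filter changed sign. No paired analysis was possible because each genotype has 1 array. No replicate could be left out. The probe set disagreement of 0.27 on the log2 scale pools dim and bright genes. In the brightest bin the standard deviation of all genes' differences was 0.16, so 0.27 is not a limit that holds for every gene. With 1 array per genotype, no size can be given above which a difference is resolved. RMA may understate the differences of dim genes.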
